A study of Mus musculus with 16 samples.

Results

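Small intestinal organoids labelled as Atg16l1-deficient (dIEC) were compared with organoids whose Atg16l1 gene is flanked by loxP sites but not deleted (f/f), both after TNF. This comparison took 8 of the 16 RNA sequencing libraries of the series, 4 per genotype, chosen by their titles. All organoids were grown from crypts of C57BL/6 mice and taken at day 3 of culture. Both groups received murine TNF at 20 ng/ml for 2 hours, so TNF was common to cases and controls. The other 8 libraries, 4 per genotype, had no stimulation and are used here to set the genotype difference under TNF beside the one without it. The Cre driver, the number of animals, and whether cultures were pooled or split between treatments are not given in the sources used here, so p-values measure the spread between libraries, which may be technical.

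In autophagy ATG16L1 is a subunit of the machinery that couples LC3 proteins to membrane lipid, and a common variant of the human gene is a risk factor for Crohn's disease. In the intestinal epithelium the protein is known for its role in Paneth cells, the crypt cells that secrete defensins and lysozyme. TNF binds its receptor and turns on NF-kB target genes, and under some conditions it also starts caspase-dependent apoptosis or the RIPK3 and MLKL pathway of necroptosis. Type I and type III interferons act through STAT proteins and IRF9, which bind a short DNA element called ISRE in the promoters of interferon-stimulated genes.

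The values were FPKM, fragments scaled to transcript length and library size. FPKM summed to 494221 to 610125 per library and 10796 to 11144 genes reached 1 FPKM. The number of reads behind them is unknown. Genes are not independent replicates, and across them log2(FPKM + 1) correlated with r from 0.963 to 0.978 between libraries of one TNF group (12 pairs) and from 0.96 to 0.976 between the genotypes (16 pairs). In both treatments, library 1 of f/f and library 4 of dIEC were separated from the remaining 12 on principal component 2 (10.3% of the variance). The deviations of genes from their group mean in these 4 libraries declined with transcript GC share (Spearman rho from -0.804 to -0.726 across genes, against 0.1 to 0.707 in the others). Some counts of gene lists are given again without these 4 libraries. All 15 listed genes of epithelial identity were expressed, with summed levels of 3773 to 4475 FPKM in f/f and 4070 to 4866 FPKM in dIEC with TNF. The leukocyte marker Ptprc lay between 0.0323 and 0.0557 FPKM in the 8 TNF libraries. The 32 listed immune genes in the table summed to 81.6 to 89.0 FPKM in f/f and 72.9 to 80.3 FPKM in dIEC, and 3 of them, among them the lysozyme gene Lyz2 that Paneth cells also express, reached the minimum level. Mesenchymal and endothelial markers (27 in the table, 2 above the minimum) summed to 6.49 to 13.4 and 7.14 to 12.0 FPKM.

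Atg16l1 itself (chromosome 1, 87755870 to 87792428, plus strand, mm10) was measured at 9.60, 10.8, 10.2 and 11.1 FPKM in f/f libraries 1 to 4 and at 7.52, 7.63, 7.08 and 6.74 FPKM in dIEC libraries 1 to 4. The groups did not overlap, and dIEC held 69.4% of the f/f mean (exact two-sided permutation test, p = 0.0286, the smallest that 4 against 4 allows). FPKM covers the whole gene, so transcripts without the deleted part still count, and the deletion itself could not be checked from these values.

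With TNF, 721 of 11097 tested genes (6.5%) differed between the genotypes at a Benjamini-Hochberg adjusted p under 0.05 in limma, which is what "called" means here. Of these, 421 were higher in dIEC (3.79% of tested genes) and 300 were lower (2.7%). Most changes were small: 33 of the higher genes at least doubled and 21 of the lower ones at least halved on the log2(FPKM + 1) scale. The 4 libraries of one genotype all lay above the 4 of the other for 405 of the 421 higher and 288 of the 300 lower genes, against 959 (8.64%) and 581 (5.24%) of all tested genes, 1540 in either direction (13.9%). The numbers of calls were 783 higher (7.06%) and 722 lower (6.51%) without the 4 libraries apart, and 364 and 362 without f/f library 1 alone. Without TNF, 258 genes (2.32%) were called, 171 higher (1.54%) and 87 lower (0.784%). The genes higher in both treatments numbered 51, or 12.1% of those higher with TNF and 29.8% of those higher without it. Another 43 were lower in both, 14.3% and 49.4% of the corresponding lists. The difference between the genotype effects was itself called for 365 genes (3.29%), positive for 154 (1.39%) and negative for 211 (1.9%), including 132 of the 421 higher and 142 of the 300 lower genes.

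**Figure D1:**
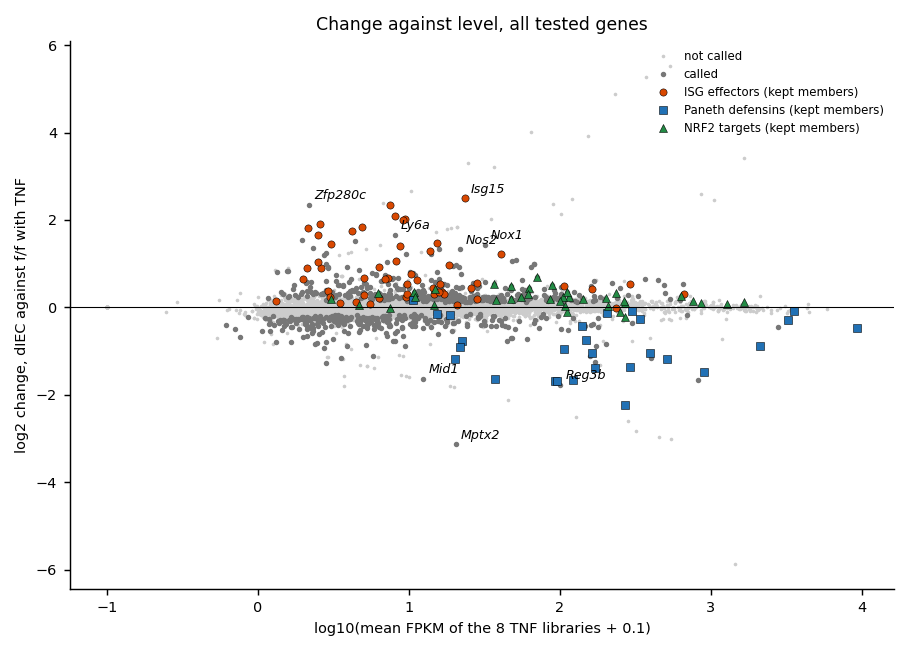
Each point is one tested gene, placed by its mean level in the 8 TNF libraries (log10 of FPKM + 0.1) and its log2 change in dIEC against f/f with TNF. Colours mark the interferon-stimulated effectors, Paneth defensins and NRF2 targets that reached the minimum level. The effectors spread upwards to Isg15 at 2.50 and most defensins lie below 0, while the largest called fall is that of Mptx2 at -3.12.

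Interferon-stimulated genes (ISGs) formed the largest group of higher genes. Of 53 ISG effectors above the minimum level, 41 were higher in dIEC with TNF and 0 were lower, against 3.79% and 2.7% of all tested genes. That minimum is a mean over all 16 libraries. Members such as Ifit3 and Rsad2 passed it only through dIEC with TNF, which favours a higher count. Their median log2 change was 0.62, against 0.014 over all tested genes, and 52 of the 53 had a positive change. Without TNF, 14 of the 53 were higher and 0 lower, and the difference between the effects was called in the positive direction for 12. Raising the minimum mean to 5 FPKM left 24 called among the fewer effectors that were then tested. Leaving out any 1 of the 8 TNF libraries left 34 to 40 called, and leaving out the 4 libraries apart left 47.

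Isg15, a ubiquitin-like protein that is attached to other proteins, had the highest rise among the effectors. It was measured at 3.63, 9.10, 7.58 and 4.77 FPKM in f/f libraries 1 to 4 and at 33.1, 50.8, 56.5 and 22.04 FPKM in dIEC libraries 1 to 4. The lowest dIEC library lay well above the highest f/f library, and the spread within dIEC was wide. The log2 change was 2.50 (SE 0.285, limma adjusted p = 4.94e-05), and dIEC held 6.48 times the f/f mean. Unstimulated, the same gene ran from 1.34 to 1.72 FPKM in f/f and from 2.79 to 5.59 FPKM in dIEC, which did not overlap either but missed the threshold (adjusted p = 0.0583).

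Ifit1 and Ifit3 are genes of one cluster on chromosome 19 with antiviral products. Without TNF, both were higher in dIEC with no overlap, but only Ifit1 was called. Ifit1 gave 1.35, 2.28, 2.14 and 1.16 FPKM in f/f with TNF against 9.08, 14.5, 19.1 and 9.66 FPKM in dIEC (log2 change 2.33, SE 0.188, adjusted p = 2.33e-06). Unstimulated dIEC libraries had 2.03 to 2.77 FPKM of Ifit1, above the 0.812 to 0.911 FPKM of unstimulated f/f, a called rise of 0.90. Ifit3 was low in 3 of the 4 groups and ran from 0.107 to 0.308 FPKM in unstimulated f/f, from 0.336 to 0.415 FPKM in unstimulated dIEC and from 0.284 to 0.466 FPKM in f/f with TNF. In dIEC with TNF it reached 2.48, 5.48, 8.05 and 2.44 FPKM, a rise of 1.92 over f/f (SE 0.23, adjusted p = 7.5e-05), and the difference from the unstimulated effect was called (1.72, adjusted p = 0.00759).

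Rsad2, which encodes the antiviral enzyme viperin, was also low outside dIEC with TNF, and its unstimulated values overlapped between genotypes. It lay between 0.05 and 0.402 FPKM in the libraries of the 3 other groups and at 2.44, 4.22, 5.58 and 2.76 FPKM in dIEC with TNF (adjusted p = 2.86e-06 against f/f with TNF). Slfn2 differed between treatments in f/f too: its level was 0.0755 to 0.0983 FPKM in the unstimulated f/f libraries and 2.55, 3.44, 3.46 and 2.41 FPKM after TNF. Unstimulated dIEC held 0.389 to 0.445 FPKM, above unstimulated f/f but not called. After TNF, dIEC held 11.2, 17.5, 19.5 and 12.0 FPKM. The f/f and dIEC values with TNF did not overlap, with a log2 change of 1.99 (SE 0.141, adjusted p = 6.15e-07). Rtp4, a chaperone for membrane receptors, was higher in dIEC in both treatments, from 0.515 to 0.797 against 3.09 to 4.25 FPKM unstimulated and from 2.33 to 3.78 against 12.3 to 19.6 FPKM with TNF. Its changes were 1.54 and 2.02, and the difference between them was not called (0.48, adjusted p = 0.333).

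The 2',5'-oligoadenylate synthetase family, enzymes that make a second messenger for RNA decay, was represented by Oas1a, Oas1g and Oasl2 among the named genes. Oas1a was measured at 5.46, 9.06, 8.48 and 6.95 FPKM in f/f and 21.4, 27.1, 27.2 and 15.5 FPKM in dIEC with TNF. Oas1g, its neighbour on chromosome 5, ran from 2.95 to 5.24 against 8.75 to 15.5 FPKM. Reads shared between these similar genes may be divided in a way the files do not describe. Oasl2, the mouse gene with a ubiquitin-like tail, went from 1.64 to 3.23 FPKM in f/f to 10.3 to 17.7 FPKM in dIEC (log2 change 2.095, SE 0.171). All 3 were higher in dIEC without TNF as well, and for none of the 3 was the difference between treatments called. Bst2, which encodes tetherin, was well expressed in every group: with TNF it stood at 9.37, 14.1, 12.7 and 12.1 FPKM in f/f and 22.4, 28.6, 28.7 and 18.6 FPKM in dIEC (log2 change 0.96, adjusted p = 0.000526). Apol9a (0.892 to 2.38 against 4.84 to 10.6 FPKM) was also higher, as were Samd9l (11.3 to 13.4 against 16.9 to 20.2 FPKM) and the ADP-ribosyltransferase gene Parp14 (4.33 to 6.06 against 10.1 to 13.0 FPKM), the latter pair chosen after their values were seen.

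The dIEC libraries kept an order across these genes. Among the 41 called effectors, dIEC library 3 was the highest of its group for 32 and library 4 the lowest for 29, with library 1 lowest for 10. The median of the 41 log2 values over the f/f mean was 0.74, 1.05, 1.11 and 0.60 in dIEC libraries 1 to 4. In f/f, library 1 was the lowest of its group for 29 of the 41. The lowest libraries of both genotypes were thus those that stood apart on the second component, and 47 effectors were called without them.

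**Figure D2:**
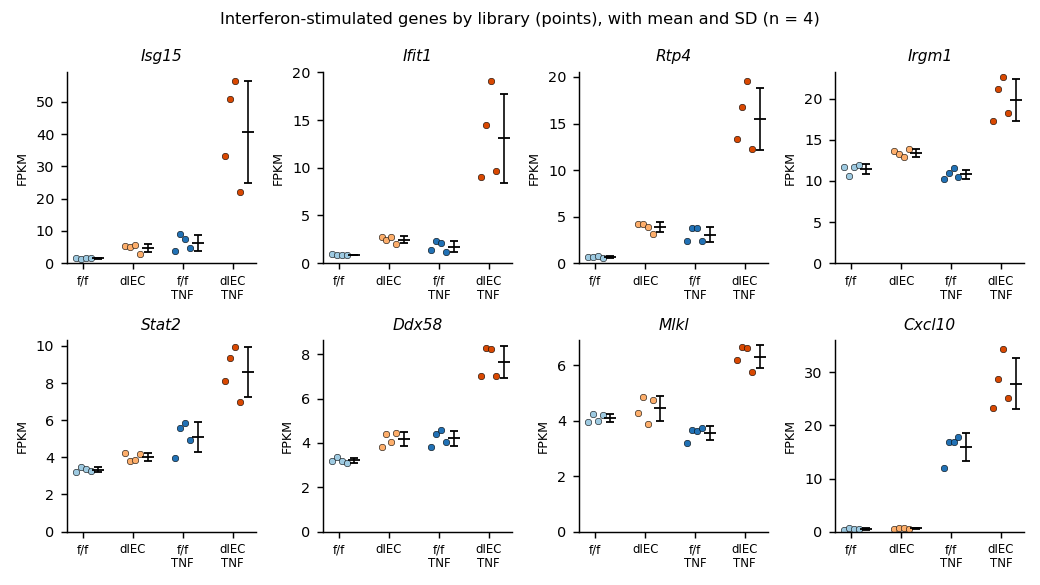
FPKM of 8 genes of the interferon groups in each of the 16 libraries, by genotype and treatment; each point is a library, and the bar beside it gives the mean and SD (n = 4). With TNF, all dIEC points of Isg15, Ifit1, Rtp4, Irgm1, Stat2, Ddx58, Mlkl and Cxcl10 lie above the f/f points, while without TNF the genotypes lie close together for Mlkl and Cxcl10.

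Promoter windows of RefSeq (GRCm38.p6), from 250 bases before to 50 bases after the annotated start, were available for 8686 of the 11097 tested genes (78.3%). The ISRE pattern (GAAA, any 2 bases, GAAA), on either strand, was in 2.83% of all these windows. It was in 10.3% of those of genes called higher and in 3.21% of those called lower. Of called ISG effectors, 15 of 34 windows held it (44.1%). Of all tested effectors, called or not, 19 of 45 windows did (42.2%), so the share was not particular to the called ones. The windows of 3 effectors and of the GTPase gene Irgm2 are shown because these genes were called higher in dIEC and differ in how the element is repeated. Capitals mark the matches. Isg15 (chr4:156200769-156201068, minus strand) has 3 overlapping matches that begin 78, 72 and 66 bases before the start. Ifit1 (chr19:34640639-34640938, plus strand) has 2, at 104 and 85 bases before it, and Ifit3 (chr19:34583279-34583578, plus strand) has 2 that lie 156 and 122 bases before it, all on the opposite strand. Irgm2 (chr11:58214727-58215026, plus strand) has 1, at 64 bases before the start.
Isg15: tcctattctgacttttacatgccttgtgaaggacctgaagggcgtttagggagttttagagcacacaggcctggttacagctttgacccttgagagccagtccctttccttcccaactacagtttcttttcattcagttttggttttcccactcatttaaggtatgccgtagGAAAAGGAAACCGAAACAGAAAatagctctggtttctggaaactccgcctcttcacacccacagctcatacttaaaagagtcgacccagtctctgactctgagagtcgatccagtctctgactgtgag
Ifit1: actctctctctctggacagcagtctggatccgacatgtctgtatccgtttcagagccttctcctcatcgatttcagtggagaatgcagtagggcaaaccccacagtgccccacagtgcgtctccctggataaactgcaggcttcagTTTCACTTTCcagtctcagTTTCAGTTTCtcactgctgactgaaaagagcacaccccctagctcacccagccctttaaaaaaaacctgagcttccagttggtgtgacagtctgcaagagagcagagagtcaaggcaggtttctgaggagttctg
Ifit3: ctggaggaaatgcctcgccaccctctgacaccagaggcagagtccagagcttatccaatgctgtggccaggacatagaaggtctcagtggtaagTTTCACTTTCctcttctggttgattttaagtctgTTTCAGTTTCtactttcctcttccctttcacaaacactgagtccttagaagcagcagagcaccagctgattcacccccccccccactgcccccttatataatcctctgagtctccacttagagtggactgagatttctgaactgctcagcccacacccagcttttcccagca
Irgm2: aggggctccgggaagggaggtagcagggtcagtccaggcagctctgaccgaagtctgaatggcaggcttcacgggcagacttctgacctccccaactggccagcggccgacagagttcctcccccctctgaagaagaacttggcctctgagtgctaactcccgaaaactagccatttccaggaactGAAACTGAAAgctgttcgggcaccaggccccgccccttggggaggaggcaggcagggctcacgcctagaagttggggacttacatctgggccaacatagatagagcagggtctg
The window of Oasl2 holds no match, although its rise was of similar size. A match is a run of letters and not a measured binding site.

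The cycle that attaches and removes ISG15 was higher at several steps. Of 6 tested genes of ISG15 conjugation, 5 were higher and 0 lower, and Usp18 passed the minimum level only through dIEC with TNF. Usp18, the protease that takes ISG15 off and also restrains the interferon receptor, gave 0.207, 0.647, 0.537 and 0.377 FPKM in f/f and 2.57, 4.04, 4.66 and 1.88 FPKM in dIEC with TNF, 7.43 times the f/f mean. The conjugating enzyme gene Ube2l6 went from 5.58 to 7.29 FPKM in f/f to 8.43 to 11.1 FPKM in dIEC (log2 change 0.52), and the ligase gene Trim25 from 16.6 to 18.7 FPKM to 22.9 to 26.1 FPKM (0.45). Isg15 is counted in this list too.

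The transcription factors that carry the interferon signal were higher, and the receptors were not called. Of 27 tested genes for receptors and signalling, 4 were called, all higher. Among them, Stat2 gave 3.98 to 5.82 against 6.96 to 9.96 FPKM and Irf9 6.22 to 9.01 against 12.0 to 15.4 FPKM. Irf7, which amplifies interferon production, ranged widely in both genotypes, from 4.88 to 10.8 FPKM in f/f and from 14.0 to 29.4 FPKM in dIEC, without overlap. The factor gene Irf1, itself a TNF and interferon-gamma target, had overlapping values of 37.9 to 45.5 and 43.7 to 47.0 FPKM. The type I receptor gene Ifnar1 overlapped as well, at 7.69 to 8.39 and 7.97 to 8.61 FPKM. The type III receptor gene Ifnlr1 lay between 3.98 and 4.95 FPKM in f/f and between 5.05 and 5.25 FPKM in dIEC, apart but not called (log2 change 0.14, adjusted p = 0.211).

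None of the 20 interferon genes in the table reached the minimum mean of 1 FPKM. Their summed level was 0.0116 to 0.216 FPKM in f/f and 0.0669 to 0.245 FPKM in dIEC with TNF, and these ranges overlap.

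Sensors of nucleic acids were higher in part. Of 24 tested sensor genes, 9 were higher and 0 lower, against 3.79% and 2.7% of all tested genes. Their median log2 change was 0.22. Dhx58 passed the minimum level only through dIEC with TNF, which favours a higher count. Ddx58, which encodes the RNA sensor RIG-I, was at 3.83, 4.39, 4.56 and 4.05 FPKM in f/f and at 7.01, 8.28, 8.25 and 7.03 FPKM in dIEC (log2 change 0.73, SE 0.0642, adjusted p = 4.03e-06). Ifih1, for the long-RNA sensor MDA5, ran from 4.26 to 5.38 against 7.41 to 8.71 FPKM, and Dhx58, for their regulator LGP2, from 0.626 to 1.57 against 2.45 to 5.72 FPKM. The helicase gene Ddx60 (0.619 to 1.05 against 2.82 to 4.61 FPKM) and Eif2ak2, for the RNA-activated kinase PKR (11.1 to 12.8 against 17.9 to 20.6 FPKM), were also higher. Tmem173, for the DNA pathway adaptor STING, went from 1.77 to 2.08 FPKM in f/f to 2.45 to 2.94 FPKM in dIEC (log2 change 0.35, adjusted p = 0.00575). The difference from the unstimulated effect was called for 4 sensor genes, positive for 3 and negative for 1. The positive ones were Ddx58, Ddx60 and Eif2ak2. Leaving out single libraries in 16 ways ended the call of the difference in 13 for Ddx60. The count of higher sensors was 4 with a minimum mean of 5 FPKM.

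Most tested genes of immunity-related GTPases, a family that acts against intracellular microbes, were higher. Of 5 tested members of the list, 4 were higher and 0 lower, against 3.79% and 2.7% of all tested genes. The remaining 1 had a negative change. Without the 4 libraries apart, 4 were higher and 1 lower, against 7.06% and 6.51%. Irgm1, on chromosome 11 at 48861968 to 48871683, was measured at 10.3, 10.9, 11.5 and 10.4 FPKM in f/f and at 17.2, 21.2, 22.6 and 18.2 FPKM in dIEC with TNF (log2 change 0.81, SE 0.0708, adjusted p = 3.75e-06). Its unstimulated values were 10.6 to 11.9 FPKM in f/f and 12.9 to 13.9 FPKM in dIEC. Igtp went from 1.40 to 2.09 FPKM to 5.29 to 8.89 FPKM and Irgm2 from 0.949 to 1.55 FPKM to 3.50 to 4.78 FPKM. The annotated spans of Igtp and Irgm2 on chromosome 11 overlap, so their reads may not be fully separable. Ifi47 (5.27 to 6.17 against 8.46 to 11.7 FPKM) was higher as well. The other 16 listed GTPase genes, guanylate-binding proteins among them, were below the minimum.

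Some genes of antigen presentation were called. For MHC class I, 3 of 28 tested genes were higher and 0 lower, against 3.79% and 2.7% of all tested genes. Of the 28, 24 had a positive change and 4 a negative one, which 44.4% of all tested genes had. Without the 4 libraries apart, 9 were higher and 1 lower, against 7.06% and 6.51%. B2m, the light chain of class I molecules, was at 423, 440, 457 and 436 FPKM in f/f and at 526, 565, 557 and 558 FPKM in dIEC (log2 change 0.33, SE 0.0489, adjusted p = 0.000559), a small rise with a clear gap between the groups. The proteasome activator gene Psme1 went from 72.7 to 87.6 FPKM to 92.8 to 109 FPKM. The class I heavy chain gene H2-K1 overlapped between genotypes (199 to 291 and 234 to 312 FPKM). The peptide transporter gene Tap1 also overlapped, at 3.19 to 5.81 and 5.07 to 9.98 FPKM (adjusted p = 0.0871), and it was called without dIEC library 4. For MHC class II, the invariant chain gene Cd74 was higher in dIEC without TNF (1.54 to 2.42 against 3.90 to 5.68 FPKM). With TNF it lay at overlapping levels of 36.5 to 56.9 and 29.7 to 50.4 FPKM, and the difference between these genotype effects was called (-1.22, adjusted p = 0.00973).

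Of 18 tested cytokine and chemokine genes, 7 were higher and 0 lower, against 3.79% and 2.7% of all tested genes. Il1rn passed the minimum level only through dIEC with TNF, which favours a higher count. Tnf, the gene for the cytokine added to the medium, was transcribed by the organoids themselves at 8.93, 11.0, 11.8 and 11.4 FPKM in f/f and 17.1, 16.4, 18.4 and 16.7 FPKM in dIEC, against 0.707 to 1.27 FPKM in all unstimulated libraries. The genotype difference with TNF was 0.63 (SE 0.077, adjusted p = 9.41e-05). Cxcl10, an interferon and NF-kB target that attracts T cells, gave 12.1, 16.9, 17.0 and 17.9 FPKM in f/f and 23.4, 28.7, 34.4 and 25.1 FPKM in dIEC. It lay between 0.349 and 0.702 FPKM in the unstimulated libraries of both genotypes. Cxcl16, a membrane-bound chemokine gene, went from 11.8 to 14.6 FPKM to 19.0 to 21.1 FPKM. Il1rn, for the natural antagonist of interleukin 1, went from 1.44 to 1.95 FPKM to 3.17 to 4.50 FPKM, 2.38 times the f/f mean. Ccl28, a chemokine gene of mucosal epithelia, rose by less, from 20.4 to 24.3 FPKM to 27.7 to 31.6 FPKM, and was not called after quantile normalization. With a minimum mean of 5 FPKM, 4 of the 7 calls were left.

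The core feedback genes of NF-kB were not called. Of 33 tested NF-kB components and targets, 3 were higher and 1 lower, against 3.79% and 2.7% of all tested genes. Without the 4 libraries apart, 7 were higher and 2 lower, against 7.06% and 6.51%. The median log2 change of the 33 was 0.10, against 0.014 over all tested genes. Of the 33, 28 had a positive change and 5 a negative one, which 44.4% of all tested genes had. The inhibitor gene Nfkbia stood at 148, 198, 186 and 199 FPKM in f/f with TNF and at 220, 218, 219 and 192 FPKM in dIEC, against 16.8 to 21.8 FPKM in all unstimulated libraries. Of its dIEC values, that of library 4 lay within the f/f range (log2 change 0.22, adjusted p = 0.155). Tnfaip3, for the inhibitor A20, ran from 20.6 to 23.3 against 23.6 to 25.2 FPKM and was not called either (0.12, adjusted p = 0.263). The called exceptions were Icam1, an adhesion molecule gene (9.46 to 14.7 against 16.9 to 20.2 FPKM), Birc3, for a ubiquitin ligase that restrains cell death (31.4 to 33.4 against 36.8 to 40.4 FPKM), and the TNF receptor gene Tnfrsf1b. The single lower member was Cd83, an immunoglobulin-family membrane protein gene: it gave 9.78, 11.0, 10.7 and 10.2 FPKM in f/f and 6.88, 6.85, 7.11 and 8.65 FPKM in dIEC (log2 change -0.45, adjusted p = 0.00127).

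Among the necroptosis genes, Mlkl had the highest called rise. Of 18 tested genes for necroptosis and death receptors, 4 were higher and 0 lower. Mlkl, the membrane-permeabilizing effector of necroptosis, gave 3.19, 3.67, 3.65 and 3.73 FPKM in f/f with TNF and 6.19, 6.67, 6.62 and 5.78 FPKM in dIEC (log2 change 0.68, SE 0.0629, adjusted p = 6.84e-06). Unstimulated values overlapped at 3.97 to 4.26 and 3.87 to 4.86 FPKM, and the difference between the effects was called (0.59, adjusted p = 0.00154). Its upstream kinases were not called: Ripk1 lay at 10.5 to 11.8 FPKM in f/f and 10.4 to 12.2 FPKM in dIEC, and Ripk3 at 19.4 to 23.6 and 21.98 to 26.8 FPKM. Zbp1, for a sensor of Z-form nucleic acid that can engage RIPK3, was below the minimum mean and not tested. It read 0.442, 0.269, 0.521 and 0.325 FPKM in f/f and 1.06, 1.61, 1.89 and 0.330 FPKM in dIEC, where library 4 fell within the f/f range. Casp8, which cleaves RIPK1 and RIPK3, went from 34.3 to 37.1 FPKM to 39.0 to 43.2 FPKM (log2 change 0.23), a call lost under median-of-ratios scaling and quantile normalization. Its regulator gene Cflar overlapped at 9.28 to 9.66 and 9.50 to 10.2 FPKM. In the apoptosis and pyroptosis list 1 of 30 genes was higher and 2 were lower (2 and 6 without the 4 libraries apart), against 3.79% and 2.7% of all tested genes. They were Pmaip1, for the death inducer NOXA (22.7 to 25.6 against 27.7 to 33.0 FPKM, a call also lost under both scalings), Bcl2l11, for BIM (3.53 to 4.02 against 2.92 to 3.10 FPKM), and the inflammasome sensor gene Nlrp1b (1.63 to 1.85 against 1.14 to 1.38 FPKM). Gsdmd, for the pore former of pyroptosis, was not called (29.6 to 41.3 and 37.1 to 44.6 FPKM).

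**Figure D3:**
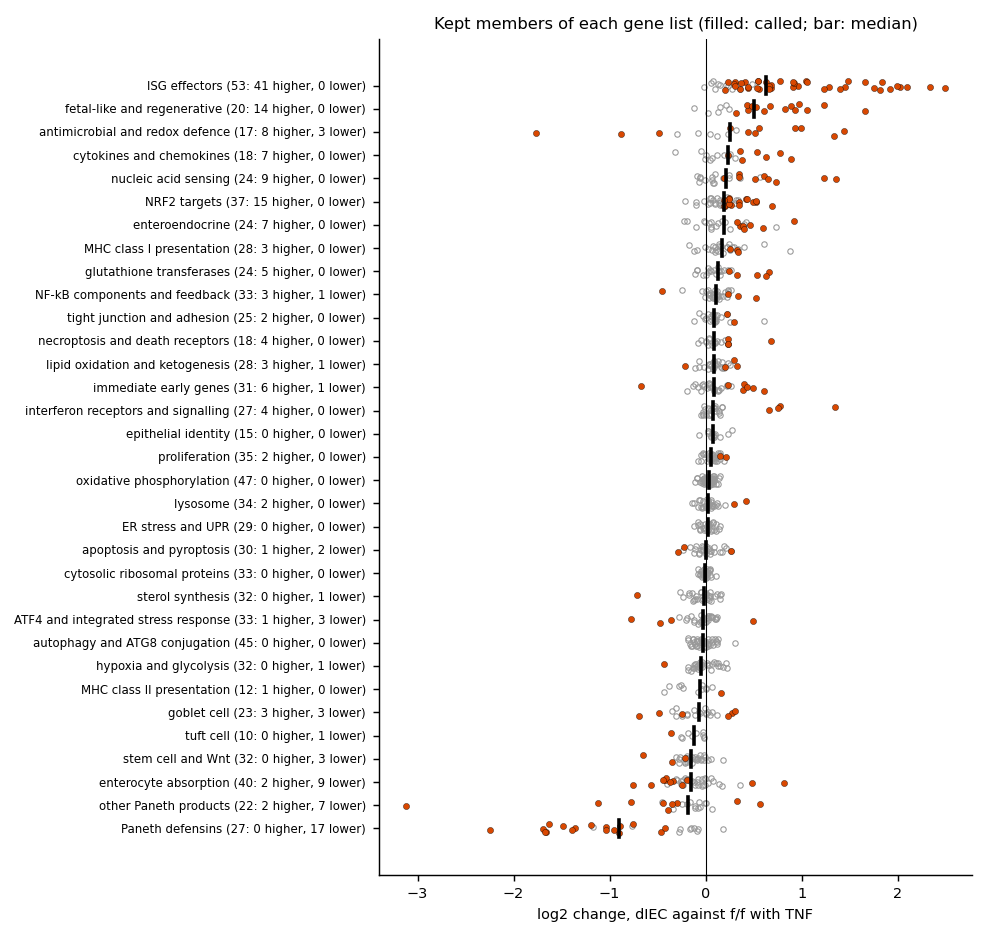
Log2 change in dIEC against f/f with TNF for the members above the minimum level of each gene list with at least 10 such members; filled points are called genes and the vertical bar is the list median. The effector list at the top has its median at 0.62 and the defensin list at the bottom at -0.91, and most other lists lie close to 0.

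Paneth cell products made up the largest block of lower genes. Of 27 tested defensin genes, 17 were lower and 0 higher, with a median log2 change of -0.91. Without TNF, 11 were lower and 2 higher. RNA of whole organoids was measured, so fewer cells of a type and less RNA per cell cannot be told apart. Many defensin genes are near-identical, and how reads were divided among them was not given in the sources used here, so single members are uncertain.

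Defa21 and Defa22 showed a genotype difference with TNF and no called one without it. Defa21 stood at 153, 149, 142 and 130 FPKM in f/f with TNF and at 45.2, 43.1, 42.7 and 43.4 FPKM in dIEC, while the unstimulated libraries overlapped at 52.3 to 62.9 and 46.8 to 59.0 FPKM. The level in f/f with TNF was thus above the other 3 groups. The log2 change was -1.69 (SE 0.0717, adjusted p = 1.98e-09) and the difference from the unstimulated effect was -1.60 (adjusted p = 4.66e-07). Defa22 had nearly the same values, 137 to 159 against 42.1 to 47.7 FPKM. Defa5 (352 to 498 against 151 to 170 FPKM) and the defensin-like Gm14851 (403 to 498 against 82.3 to 102 FPKM) were lower in both treatments. Defa24, chosen after its values were seen as the most abundant called member, lay at 9767 to 12152 FPKM in f/f and 7515 to 8148 FPKM in dIEC (log2 change -0.47, not called after quantile normalization or without a minimum level).

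Of 22 other Paneth products, 7 were lower and 2 higher, against 2.7% and 3.79% of all tested genes. Mptx2, a pentraxin gene of Paneth cells on chromosome 1 at 173274382 to 173277777, was measured at 49.8, 39.3, 30.2 and 29.9 FPKM in f/f with TNF and at 2.88, 3.19, 3.55 and 3.61 FPKM in dIEC. The dIEC mean was 0.0887 of the f/f mean, and the log2 change of -3.12 (SE 0.184, adjusted p = 7.99e-08) was close to the unstimulated -3.10. Its neighbour in the family, Mptx1, fell from 6.64 to 9.88 FPKM to 2.86 to 3.46 FPKM with TNF, while the unstimulated difference was not called and the difference between the effects was (-0.76, adjusted p = 0.0131). Lyz1, the Paneth lysozyme gene, was at 3323, 3158, 3105 and 3268 FPKM in f/f and at 2328, 2125, 2461 and 2555 FPKM in dIEC (log2 change -0.44, not called after quantile normalization). Nupr1, a stress-induced chromatin protein gene counted in this list, went from 51.2 to 62.4 FPKM to 31.2 to 36.3 FPKM. Pla2g2a, a secreted bactericidal phospholipase gene, moved the other way, from 17.7 to 22.8 FPKM in f/f to 28.6 to 37.1 FPKM in dIEC, with overlapping unstimulated values of 5.87 to 6.71 and 5.84 to 6.64 FPKM. The matrix protease gene Mmp7, which processes defensins, lay at 73.9 to 80.8 and 63.2 to 70.8 FPKM, apart but not called with TNF (adjusted p = 0.19), and it was called lower without TNF.

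Several genes of enzymes that produce reactive oxygen or nitrogen were higher in dIEC. Within the list of antimicrobial and redox defence, 8 of 17 tested genes were higher and 3 lower. Nos2, the inducible nitric oxide synthase, gave 10.0, 11.7, 12.6 and 13.4 FPKM in f/f with TNF and 34.7, 29.7, 32.4 and 29.1 FPKM in dIEC (log2 change 1.33, SE 0.0848, adjusted p = 1.66e-07). All unstimulated libraries had 0.368 to 1.04 FPKM of it. Nox1, the epithelial NADPH oxidase gene, gave 15.5, 14.9, 16.6 and 19.7 FPKM in f/f and 53.3, 38.7, 40.7 and 56.1 FPKM in dIEC with TNF, and it was already higher without TNF (4.04 to 8.05 against 8.71 to 15.9 FPKM). Duox2, the dual oxidase gene, went from 1.75 to 2.79 FPKM to 4.50 to 5.70 FPKM. Its maturation factor gene Duoxa2, next to it on chromosome 2, went from 1.37 to 1.59 FPKM to 3.05 to 4.51 FPKM. For Nos2, Duox2 and Duoxa2 the difference from the unstimulated effect was called, and for Nox1 it was not (adjusted p = 0.432).

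The Reg3 lectins, secreted proteins that act on gut bacteria, did not move together. Reg3b stood at 147, 154, 183 and 144 FPKM in f/f with TNF and at 47.2, 44.8, 39.5 and 49.4 FPKM in dIEC (log2 change -1.77, SE 0.0958, adjusted p = 3.2e-08). Unstimulated, the order was the opposite: 581 to 669 FPKM in f/f and 739 to 983 FPKM in dIEC (0.46, adjusted p = 0.0209). The difference between these effects was -2.23 (adjusted p = 4.66e-07). Reg3a, next to it on chromosome 6, had the same arrangement, with 218 to 245 against 113 to 136 FPKM after TNF and 251 to 261 against 351 to 430 FPKM before. Reg3g, of the same cluster, was not called in either treatment and gave 41.4 to 54.4 and 53.8 to 63.7 FPKM with TNF. The goblet lectin gene Zg16, which aggregates Gram-positive bacteria, was lower with TNF (111 to 125 against 79.8 to 92.8 FPKM). Lypd8, whose product keeps flagellated bacteria from the epithelium, and S100a11, both chosen after their values were seen, were higher, at 378 to 433 against 535 to 613 FPKM and at 164 to 190 against 252 to 286 FPKM.

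Genes of the fetal-like state that regenerating epithelium takes on were higher. Of 20 tested, 14 rose and 0 fell, against 3.79% and 2.7% of all tested genes. The median log2 change was 0.50. Members such as Anxa1 and Il1rn passed the minimum level only through dIEC with TNF, which favours a higher count. Without TNF, 3 were higher and 1 lower, and the difference between the effects was called in the positive direction for 11. Ly6a, for the surface marker Sca-1, was measured at 3.08, 3.71, 3.01 and 3.45 FPKM in f/f and at 11.6, 13.0, 15.4 and 10.8 FPKM in dIEC with TNF (log2 change 1.66, SE 0.13, adjusted p = 1.66e-06). Ly6e, of the same cluster on chromosome 15, went from 28.4 to 32.8 FPKM to 56.9 to 76.7 FPKM. Both Ly6 genes are also interferon-inducible.

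Members outside the Ly6 family rose as well. The annexin gene Anxa10 gave 5.27, 4.46, 5.69 and 5.45 FPKM in f/f and 15.0, 14.1, 13.0 and 12.3 FPKM in dIEC with TNF, with overlapping unstimulated values of 4.94 to 7.75 and 5.34 to 6.59 FPKM (difference between effects 1.20, adjusted p = 0.000362). The epidermal growth factor receptor ligand genes Areg (63.1 to 69.7 against 86.6 to 92.3 FPKM) and Ereg (2.19 to 2.68 against 3.86 to 4.46 FPKM) were higher. Anxa1 (0.695 to 0.896 against 1.93 to 2.47 FPKM), Lgals3, for the lectin galectin-3 (12.6 to 16.2 against 24.9 to 33.9 FPKM), and the envelope gene Sprr1a (12.2 to 16.0 against 24.1 to 31.6 FPKM) were chosen after their values were seen. So was the calcium-binding protein gene S100a6, outside the list, at 29.7 to 35.7 against 60.4 to 86.7 FPKM. Clu, a marker of revival stem cells, was not called and overlapped at 2.08 to 3.70 and 2.47 to 3.62 FPKM.

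Targets of NRF2, the transcription factor of the oxidant response, were higher in dIEC with TNF. Of 37 tested, 15 were higher and 0 lower (median log2 change 0.19), where 0 were higher and 1 lower without TNF. The count of 15 fell to 9 without f/f library 3 and to 9 without dIEC library 1. Srxn1, which restores oxidized peroxiredoxins, was at 38.3, 39.1, 41.0 and 39.3 FPKM in f/f and at 56.4, 57.8, 54.6 and 55.2 FPKM in dIEC (log2 change 0.50, SE 0.0422, adjusted p = 3.32e-06). The quinone reductase gene Nqo1 gave 65.7 to 76.4 against 89.6 to 116 FPKM, and the carbonyl reductase gene Cbr3 gave 43.6 to 61.0 against 75.2 to 95.9 FPKM. In the unstimulated libraries of both genotypes Nqo1 ran from 177 to 218 FPKM, Cbr3 from 150 to 187 FPKM and Srxn1 from 48.2 to 60.5 FPKM. After TNF the dIEC values of Nqo1 and Cbr3 thus lay between the f/f values and those of unstimulated organoids, and those of Srxn1 lay within the unstimulated range.

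Of 24 tested glutathione transferases, which conjugate reactive compounds, 5 were higher and 0 lower, against 3.79% and 2.7% of all tested genes. Without the 4 libraries apart, 8 were higher and 1 lower, against 7.06% and 6.51%. Gsta4, which acts on lipid peroxidation products, was at 283, 276, 288 and 296 FPKM in f/f with TNF and at 472, 436, 413 and 484 FPKM in dIEC, against 491 to 584 FPKM in all unstimulated libraries. Gstm1 (462 to 598 against 713 to 885 FPKM), Gstm2 (49.0 to 55.4 against 63.5 to 65.5 FPKM) and Gstm3 (308 to 381 against 504 to 593 FPKM) were higher with TNF. They lie side by side on chromosome 3 and are similar in sequence. Akr1b8, an aldo-keto reductase gene chosen after its values were seen, gave 41.4 to 47.2 FPKM in f/f and 84.1 to 95.4 FPKM in dIEC with TNF and 110 to 126 FPKM unstimulated. Its difference between effects was 1.01 (adjusted p = 3.02e-06). The antioxidant response element TGAC, any 3 bases, GC, on either strand, was in 15.2% of all windows. It was in 6 of 11 windows of called NRF2 targets (54.5%) and in 0 of 4 windows of called glutathione transferases. Among all tested members, called or not, it was in 10 of 32 (31.2%) and 3 of 22 (13.6%). The Srxn1 window (chr2:152105274-152105573, plus strand) is shown because Srxn1 had the smallest adjusted p of the list. It has 1 match, in capitals and on the opposite strand, that begins 28 bases after the start.
Srxn1: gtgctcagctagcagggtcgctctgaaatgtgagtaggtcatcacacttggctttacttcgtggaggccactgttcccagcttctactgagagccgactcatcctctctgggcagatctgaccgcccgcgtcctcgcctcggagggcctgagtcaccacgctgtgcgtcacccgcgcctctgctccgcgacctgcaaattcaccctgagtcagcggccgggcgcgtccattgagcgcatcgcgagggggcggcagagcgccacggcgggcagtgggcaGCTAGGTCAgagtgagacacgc

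A share of the absorptive enterocyte genes was lower in dIEC with TNF, and a share was higher without it. Of 40 tested, 9 were lower and 2 higher with TNF, and 9 were higher and 0 lower without TNF. Over all tested genes, 2.7% were lower and 3.79% higher with TNF, and 1.54% were higher and 0.784% lower without it. The difference between the effects was called for 14 of the 40, negative for 13 and positive for 1. The count of 9 lower genes was 4 when f/f library 3 was left out, 5 when dIEC library 3 was, and 16 without the 4 libraries apart, where 4 were higher. Lct, the brush border lactase gene, was at 10.5, 9.71, 10.4 and 9.45 FPKM in f/f with TNF and at 5.90, 5.79, 5.40 and 4.94 FPKM in dIEC (log2 change -0.76, SE 0.072, adjusted p = 8.59e-06). Unstimulated it ran from 0.816 to 1.24 FPKM in f/f and from 1.45 to 1.79 FPKM in dIEC. The fatty acid transporter gene Cd36 (5.26 to 5.92 against 3.04 to 4.29 FPKM with TNF) reversed in the same way, from 10.8 to 12.5 against 13.3 to 16.6 FPKM without it. The peptidase gene Mme, chosen after its values were seen, was lower with TNF (46.5 to 55.9 against 32.1 to 41.7 FPKM).

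Sucrase-isomaltase and the fatty acid binding protein of enterocytes were not called with TNF. Sis lay at 490 to 556 and 386 to 506 FPKM and Fabp1 at 4185 to 4909 and 4105 to 4599 FPKM. The 2 higher members were the alkaline phosphatase gene Alpi, at 126, 127, 136 and 144 FPKM in f/f and 215, 184, 174 and 177 FPKM in dIEC, and the adenosine deaminase gene Ada, at 5.77, 7.29, 7.25 and 7.48 against 15.5, 15.2, 12.2 and 9.78 FPKM. A second alkaline phosphatase gene, Akp3, next to Alpi on chromosome 1 and chosen after its values were seen, went from 41.0 to 50.3 FPKM to 77.3 to 106 FPKM.

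Across all tested genes, 36 were called in both treatments in opposite directions. For each of the 36 the difference between the effects was also called. Calls of opposite sign in the same fit add up in that difference, so its call adds no separate evidence. Of the 36, 33 were higher in dIEC without TNF and lower with TNF, and 3 went the other way. The TNF and unstimulated comparisons share no library. Only 4 of the 36 are in the enterocyte list. Enpp7, an intestinal sphingomyelinase gene, had the widest fall of these apart from Reg3b. It gave 4.29, 5.54, 5.51 and 5.20 FPKM in f/f and 1.86, 1.89, 1.63 and 1.59 FPKM in dIEC with TNF, against 1.05 to 1.92 and 2.05 to 2.57 FPKM unstimulated (difference -1.66, adjusted p = 1.45e-05). The actin-severing protein gene Scin was at 57.2 to 61.5 against 31.6 to 38.9 FPKM with TNF and at 67.0 to 70.0 against 81.5 to 87.5 FPKM without it. G6pc, the glucose-6-phosphatase gene, chosen after its values were seen, followed the same course (9.66 to 11.1 against 4.93 to 6.65 FPKM with TNF, 7.47 to 8.87 against 9.37 to 12.5 FPKM without).

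**Figure D4:**
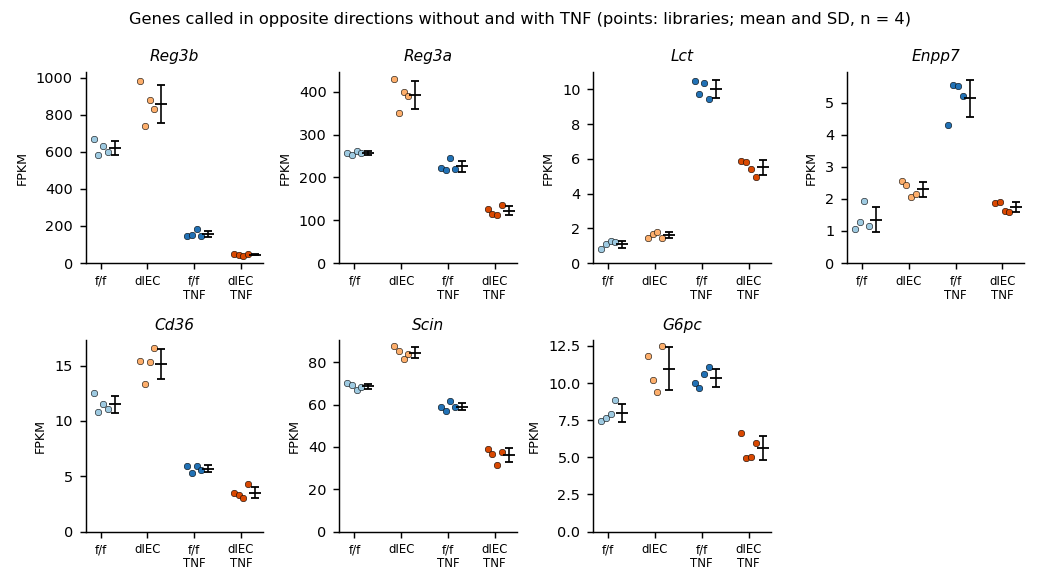
FPKM of 7 genes called in opposite directions in the 2 treatments, by library (points), with the mean and SD of each group (n = 4). In every panel the dIEC mean lies above the f/f mean without TNF and below it with TNF; for Reg3b the means go from 621 and 857 FPKM to 157 and 45.2 FPKM.

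**Figure D5:**
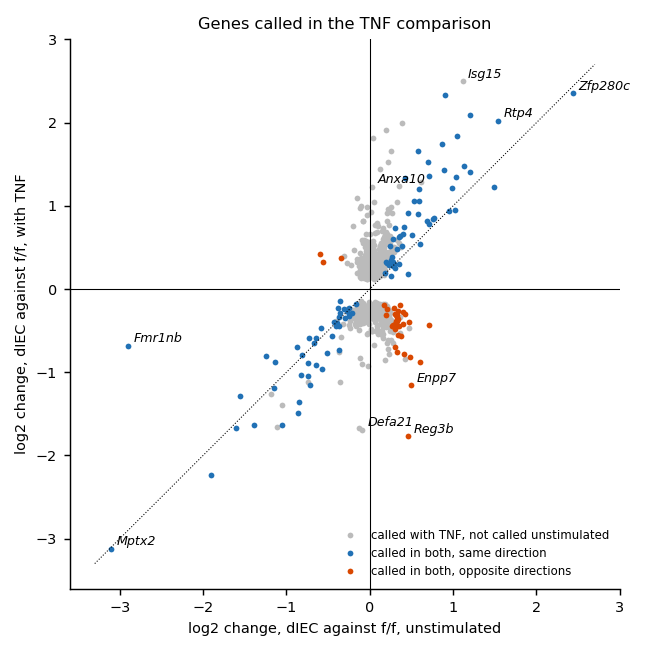
Log2 change in dIEC against f/f without TNF (horizontal) and with TNF (vertical) for the 721 genes called with TNF; the dotted line marks equal changes. Mptx2 and Zfp280c lie on the line, Isg15, Anxa10 and Defa21 far from it, and the 36 genes called in opposite directions lie in the upper left and lower right quadrants.

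Each of the following lists of metabolism held called genes, where 3.79% of all tested genes were higher and 2.7% lower. Without the 4 libraries apart these shares were 7.06% and 6.51%. The desaturase gene Scd1 was the only called member of 32 sterol and fatty acid synthesis genes: it gave 78.4, 72.9, 76.6 and 73.0 FPKM in f/f and 41.8, 46.6, 47.2 and 46.2 FPKM in dIEC with TNF (log2 change -0.72, adjusted p = 2.89e-06). Without the 4 libraries apart, 4 genes of this list were lower. Of 28 lipid oxidation and ketogenesis genes, 3 were higher and 1 lower (7 and 1 without the 4 libraries apart). Cpt1a, which brings fatty acids into mitochondria, was higher with TNF (18.9 to 19.5 against 22.4 to 25.0 FPKM). The hypoxia-responsive gene Ndrg1 was the only called gene of 32 in the hypoxia and glycolysis list, lower at 163 to 174 against 117 to 130 FPKM. Without the 4 libraries apart, 1 of these 32 was higher and 4 were lower. Without TNF, 4 were higher and 0 lower, and the difference between the effects was called for 5, each negative. Aldh1l2, a mitochondrial folate enzyme gene regulated by ATF4, was lower at 7.45 to 7.79 against 4.95 to 5.57 FPKM. It was 1 of 3 lower genes among 33 ATF4-related genes (5 without the 4 libraries apart), of which 1 was higher.

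The stem cell genes that were called were lower in dIEC. Of 32 tested, 0 were higher and 3 lower, against 3.79% and 2.7% of all tested genes. Their median log2 change was -0.15, and 29 had a negative change, as had 44.4% of all tested genes. The number of lower genes was 10 without the 4 libraries apart, where 6.51% of all tested genes were lower. It was 5 without f/f TNF library 1 and 7 without unstimulated dIEC library 4. The stem cell markers Lgr5 (27.1 to 27.9 against 19.7 to 24.9 FPKM) and Olfm4 (1336 to 1486 against 1115 to 1210 FPKM) did not overlap between genotypes with TNF but were not called (adjusted p = 0.198 and 0.0527). Both were called without unstimulated dIEC library 4, and Olfm4 also without unstimulated f/f library 1. Gkn3, a gene of stem cells in the mouse crypt, was called lower in both treatments, with 7.77, 10.2, 8.46 and 9.05 FPKM in f/f and 5.91, 5.04, 5.07 and 5.08 FPKM in dIEC after TNF. The crypt transcription factor gene Sox9, which Paneth cells need, went from 11.1 to 13.4 FPKM to 8.23 to 9.65 FPKM.

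Several enteroendocrine genes were higher. Of 24 tested enteroendocrine genes, 7 were higher and 0 lower. Cck, for the hormone cholecystokinin, stood at 31.4, 51.5, 47.5 and 48.6 FPKM in f/f and at 86.5, 91.8, 94.3 and 66.6 FPKM in dIEC with TNF (log2 change 0.92, SE 0.148, adjusted p = 0.00108). Gip, the incretin gene, went from 118 to 143 FPKM to 180 to 222 FPKM, and the proglucagon gene Gcg from 38.9 to 43.2 FPKM to 49.2 to 60.1 FPKM. The prohormone-processing enzyme gene Cpe went from 10.2 to 10.9 FPKM to 13.7 to 14.4 FPKM. For these 4 the difference from the unstimulated effect was not called. The granule protein gene Chga overlapped, at 20.3 to 28.7 and 22.8 to 34.9 FPKM.

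Goblet cell genes were called in both directions. Of 23 goblet genes, 3 were higher and 3 lower, against 3.79% and 2.7% of all tested genes. Without the 4 libraries apart, 3 were higher and 6 lower, against 7.06% and 6.51%. The mucin gene Muc2 lay at 22.9, 13.2, 13.6 and 12.9 FPKM in f/f and at 11.2, 12.1, 12.2 and 11.1 FPKM in dIEC, where f/f library 1 was far above the others, and it was not called. The trefoil peptide gene Tff3 overlapped at 890 to 1355 and 1001 to 1319 FPKM. Of 10 tuft cell genes, 0 were higher and 1 was lower (2 without the 4 libraries apart), beside the same shares of all tested genes. The tuft markers Dclk1 and Trpm5 fell just below the minimum mean, and with TNF Dclk1 ran from 0.886 to 1.02 FPKM in f/f and from 0.698 to 0.856 FPKM in dIEC.

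Of 31 immediate early genes, 6 were higher and 1 lower, against 3.79% and 2.7% of all tested genes. Without the 4 libraries apart, 6 were higher and 2 lower, against 7.06% and 6.51%. Fos went from 5.55 to 7.03 FPKM to 7.82 to 9.06 FPKM and the growth factor gene Hbegf from 3.13 to 3.45 FPKM to 4.40 to 4.92 FPKM. With all libraries, the lower one was Sgk1, for a kinase of ion transport, at 2.23 to 2.84 against 1.07 to 1.52 FPKM. Among 25 junction genes, 2 were higher, against 3.79% of all tested genes. Without the 4 libraries apart 6 were higher, against 7.06%, and without dIEC library 4 alone 4 were. Cldn2, for a pore-forming claudin, was 1 of the 2. It was at 71.5, 69.0, 72.4 and 70.1 FPKM in f/f and 84.0, 84.8, 91.3 and 87.0 FPKM in dIEC.

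Several groups had no call in this comparison at the adjusted threshold of limma. They were the 45 genes of autophagy and ATG8 conjugation other than Atg16l1, 29 genes of the unfolded protein response, 47 of oxidative phosphorylation, 33 of cytosolic ribosomal proteins and the 15 of epithelial identity. At an unadjusted p under 0.05, 9 of the autophagy genes (4 higher, 5 lower), 1 of the unfolded protein response, 3 of oxidative phosphorylation, 0 ribosomal protein genes and 0 identity genes passed, where 18.1% of all tested genes did. Without the 4 libraries apart, the adjusted calls were 1 higher and 1 lower in autophagy, 1 higher in oxidative phosphorylation and 2 higher among the identity genes. Proliferation genes gave 2 calls of 35, both higher, against 3.79% of all tested genes. Without the 4 libraries apart 4 were higher, against 7.06%, and without unstimulated f/f library 1 alone 4 were. Mki67, the proliferation marker, overlapped at 55.7 to 70.0 and 59.7 to 68.3 FPKM. The cyclin gene Ccnb1 was 1 of the 2 called, at 42.3 to 44.6 against 49.0 to 53.2 FPKM, and was not called after quantile normalization. Of 34 lysosome genes, 2 were higher and 0 lower, against 3.79% and 2.7% of all tested genes.

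Some of the widest differences belonged to genes outside these groups. Zfp280c, a zinc finger gene on the X chromosome, was listed at 0, 0, 0 and 0.0131 FPKM in f/f with TNF and at 3.68, 4.21, 3.97 and 4.66 FPKM in dIEC. The unstimulated libraries gave the same picture, 0 to 0.00593 FPKM in f/f and 3.93 to 5.12 FPKM in dIEC. Mid1, for a ubiquitin ligase and also on the X chromosome, gave 15.2, 21.7, 19.0 and 20.96 FPKM in f/f and 5.24, 5.72, 5.62 and 5.27 FPKM in dIEC with TNF (log2 change -1.64, SE 0.0836, adjusted p = 1.8e-08). It was lower by 1.38 without TNF. Gng11, for a G protein subunit, was lower with TNF at 3.38 to 4.16 against 1.27 to 2.02 FPKM, while its unstimulated values overlapped at 2.25 to 3.12 and 2.14 to 2.91 FPKM (difference -0.90, adjusted p = 0.00299).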

How the data were processed

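RNA sequencing of total RNA from 16 organoid cultures was analysed, 4 per group. The authors' deposited table gives 1 FPKM value per gene and library. Per the submitters' processing notes the tools were TopHat2 2.1.1, Cufflinks 2.2.1 and Cuffdiff and the build mm10. How shared reads were divided was not given in the sources used here. Total reads per library are unknown, so no counting interval is given. Of the per-library columns, 0 were left out. The p-value columns that the authors deposited were not used.

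Of 23847 rows, 11097 averaged 1 FPKM or more across the 16 libraries and were tested, and 12750 fell below. limma 3.58.1 (R 4.3.3) fitted 1 mean per group to log2(FPKM + 1) of all 16 libraries, with a pseudocount of 1 and a mean-variance trend (12 residual and 2.52 prior degrees of freedom). Contrasts were dIEC against f/f with TNF, the same without TNF, and their difference, two-sided, with Benjamini-Hochberg adjustment over all tested genes and calls at adjusted p under 0.05. Log2 changes understate those of genes with few FPKM. SE is of the log2 change and every adjusted p is from limma with n = 4 per group. On simulated data 75% of genes changed by 0.5 (log2) and 97% of those changed by 1 were recovered in the TNF comparison over 11097 genes. The simulated noise was normal and independent between genes. It lacked the GC-related deviation that 4 of the libraries share, and recovery in its presence was not tested.

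Members, gene lists and tests were chosen with earlier results of these data known. A gene may be in several lists. The text names Atg16l1, genes from the 20 largest rises and 20 largest falls without overlap between the groups, each list's preset main genes, and the 5 called members of smallest adjusted p per list. Some genes are not reported here. Other genes are said to be chosen after their values were seen. Promoter windows are from RefSeq (GRCm38.p6), and positions from GENCODE vM21 (GRCm38, mm10). Alternatives changed the pseudocount, minimum, scaling, model terms or samples used.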

Additional observations from a re-analysis of the deposited data

Results flagged for a closer look

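The genotype effect in the presence of TNF was compared with that in its absence by the difference of the log2 changes, and 62 named genes passed the adjusted threshold of limma. A positive value is a more positive effect with TNF. The pseudocount of 1 shrinks log2 changes at low FPKM, so a difference can also reflect a low unstimulated level. Genes such as Ifit3, Rsad2, Slfn2, Usp18, Cxcl10 and Il1rn lay under 1 FPKM in all unstimulated libraries, and Nos2 and Anxa1 lay near 1 FPKM or below. How much of their differences this makes up was not tested. Among interferon-related genes the differences were 1.43 for Ifit1, 1.72 for Ifit3, 1.78 for Rsad2, 1.60 for Slfn2, 1.31 for Usp18, 0.43 for Ddx58, 0.647 for Ddx60, 0.466 for Eif2ak2, 0.82 for Igtp, 0.607 for Irgm1, 0.607 for Irgm2 and -1.22 for Cd74. Among cytokine and death genes they were 0.458 for Tnf, 0.706 for Cxcl10, 0.558 for Cxcl16, 0.919 for Il1rn, -0.61 for Cd83, 0.592 for Mlkl, -0.30 for Bcl2l11 and -0.433 for Nlrp1b. Defence genes gave -0.759 for Mptx1, -1.60 for Defa21, -1.55 for Defa22, 0.575 for Pla2g2a, 0.904 for Nos2, 0.699 for Duox2, 0.734 for Duoxa2, -1.49 for Reg3a, -2.23 for Reg3b, 0.635 for S100a11 and -0.752 for Zg16. Regeneration-related genes gave 1.09 for Ly6a, 0.527 for Ly6e, 1.20 for Anxa10, 0.905 for Anxa1, 1.09 for Sprr1a, 0.916 for Lgals3, 0.454 for Ereg and 1.24 for S100a6. Detoxification genes gave 0.331 for Srxn1, 0.551 for Cbr3, 0.704 for Gsta4, 0.474 for Gstm2, 0.449 for Gstm3 and 1.01 for Akr1b8. Enterocyte and metabolic genes gave -1.08 for Lct, -0.935 for Cd36, 0.901 for Ada, -0.676 for Sis, -0.718 for Mme, -1.66 for Enpp7, -0.993 for Scin, -0.931 for Scd1, 1.11 for Akp3, -0.605 for Ndrg1, -1.19 for G6pc and -0.486 for Aldh1l2. The remaining values were 0.278 for Ccnb1, -0.897 for Gng11, 0.342 for Hbegf, -0.715 for Sgk1 and 0.379 for Cldn2. With single libraries left out in turn (16 ways), the call of the difference was lost in 14 for Cbr3, 13 for Ddx60, 11 for Cxcl10, 9 for Tnf, 5 for Irgm2, 1 for Igtp and 1 for Bcl2l11.

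A single library lay far from the other 3 of its group in 16 of 282 pairs of gene and group tested (5.67%), where chance gives about 1 in 20. In f/f library 1, Muc2 (22.9 FPKM) and Casp8 (37.1 FPKM) were high and Mlkl (3.19 FPKM), Reg3g (41.4 FPKM), Ada (5.77 FPKM), Gip (118 FPKM) and Chga (20.3 FPKM) were low. In dIEC library 4, Cd83 (8.65 FPKM), Mki67 (68.3 FPKM) and Scgb2b7 (8.40 FPKM) were high and Nfkbia (192 FPKM) was low. Elsewhere, Reg3a (245 FPKM) and Ereg (2.68 FPKM) were high in f/f library 3, Bcl2l11 (4.02 FPKM) and Zfp280c (0.0131 FPKM) in f/f library 4, and Gkn3 (5.91 FPKM) in dIEC library 1. Library 1 of f/f and library 4 of dIEC also stood apart on the second component over all genes.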

How the results depend on the processing

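Against 721 genes with TNF (421 higher, 300 lower), sample weights gave 2556 (1295 and 1261), removing the GC trend 1796 (951 and 845), removing it with a replicate block 1984 (1065 and 919), and leaving out the 4 libraries 1505 (783 and 722). Without a minimum mean there were 1082 (459 lower), and with a minimum of 5 FPKM 449 (155 lower). Without TNF, where 258 were called, the minimum of 5 FPKM gave 166, sample weights 1781, the GC correction 742, the correction with the block 887, and the fit without the 4 libraries 709. For the difference of the effects, called for 365, the same settings gave 195, 1920, 1023, 1152 and 967. Leaving out 1 library at a time gave 537 to 867 calls with TNF (310 to 519 higher, 216 to 362 lower), 139 to 304 without TNF and 240 to 450 for the difference. Leave-one-outs of unstimulated libraries were chosen after seeing the data. Of 118 named genes called with TNF, 110 kept the call under each of the 29 alternatives that tested them and 0 reversed. The calls of Casp8, Ccl28, Ccnb1, Defa24, Lyz1 and Pmaip1 were lost after quantile normalization, those of Icam1 and Pmaip1 when only the 8 TNF libraries were fitted, and that of Tmem173 at a pseudocount of 0.1. The cause was not tested.

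Libraries with the same number did not deviate together (correlation of deviations from -0.166 to 0.166, and 1 of 4 dIEC libraries correlated best with its own number), so the numbers were not taken as pairs. A replicate block gave 878 calls with TNF (521 higher, 357 lower), 306 without TNF and 443 for the difference. Depth is unknown, so the counting error behind a value cannot be stated.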

Other observations

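Further groups of neighbouring genes were seen among the calls, and their members were chosen after their values were seen. On chromosome 7, secretoglobin genes were higher in dIEC with TNF: Scgb2b19 went from 6.62 to 8.75 FPKM in f/f to 15.3 to 23.7 FPKM in dIEC. Scgb2b20 went from 1.15 to 2.23 FPKM to 2.94 to 5.47 FPKM, Scgb2b7 from 2.52 to 3.28 FPKM to 5.22 to 8.40 FPKM and Scgb2b27 from 0.397 to 0.936 FPKM to 1.60 to 2.03 FPKM. All 4 were also called higher without TNF, with changes of 0.99, 0.94, 0.77 and 0.68, and for none of the 4 was the difference between the effects called. They are similar in sequence, so reads may be shared among them. On chromosome 12, between 18514510 and 24097246, the unnamed transcripts 1700030C10Rik (3.96 to 4.55 against 0.906 to 1.57 FPKM), 2410018L13Rik (4.70 to 6.04 against 2.18 to 2.74 FPKM), 5730507C01Rik (57.0 to 63.9 against 33.6 to 40.0 FPKM) and 9030624G23Rik (8.46 to 10.7 against 5.43 to 6.83 FPKM) were lower with TNF, and all 4 were lower without TNF too.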
